A study of Mus musculus with 7 samples.

Results

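The receptors for the growth factors of early myeloid cells were followed across 5 peak lists of mouse common monocyte progenitors (cMoPs), the committed bone marrow precursors of monocytes. The 5 genes are Csf1r, Csf2rb, Csf3r, Flt3 and Kit, and their members are the distinct called intervals that overlap one of these genes or lie within 30 kb of either gene end in the mm10 build. There were 78 such intervals of 105978 in the 5 lists. The H3K4me2 intervals merged into 35 regions of 39395 on the autosomes. The data come from CUTAC, an antibody-guided tagmentation assay run without salt that cuts accessible DNA beside a histone mark. H3K4me2, which marks promoters and enhancers, was profiled in sorted cMoPs from mice with the WT form (2 libraries) or the form labelled DE (2 libraries) of the enhancer that the labels place −165 kb from Zeb2, all in batch 2. H3K4me3, a mark of active promoters, was profiled in 1 WT cMoP library of batch 1, so that the mark cannot be told apart from the batch. The labels give no age, strain, sex, driver or other allele for these groups. They do not say whether a library holds 1 mouse or a pool, or whether replicates are separate animals, so p-values over libraries measure only the spread between these libraries. Of the 7 samples of the series, the MDP library for H3K4me3 and the cMoP library for IgG were not analysed here.

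CSF1R, FLT3 and KIT are related receptor tyrosine kinases, which dimerize and phosphorylate themselves when they bind macrophage colony-stimulating factor (encoded by Csf1) or interleukin 34, FLT3 ligand and stem cell factor. CSF2RB is the signalling beta chain shared by the receptors for GM-CSF, interleukin 3 and interleukin 5. CSF3R is the receptor for granulocyte colony-stimulating factor, and both chains signal through JAK kinases and STAT factors. In the myeloid series KIT and FLT3 mark early progenitors, CSF1R marks cells that enter the monocyte path, and CSF3R marks the neutrophil path. cMoPs are usually sorted as cells that carry KIT and CSF1R and lack FLT3. The labels do not say how the cells of this series were gated.

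The lists held 32354 and 28152 intervals in WT replicates 1 and 2, 21968 and 17079 in DE replicates 1 and 2, and 6425 for H3K4me3. Read totals are not in the lists, and depth relative to one background library was inferred from the peak values (0.477 and 1.04 in WT, 1.20 and 1.47 in DE, 3.81 for H3K4me3). In the header, DE replicate 1 carries the name of DE replicate 2. The 2 lists differ, and the closing section gives the counts of call patterns and the calls per gene with single libraries left out. Of 6 monocyte progenitor markers, Ly6c2, Csf1r, Irf8, Klf4 and Elane had an H3K4me2 call within 1 kb of the start in all 4 lists. Ms4a3 was called in 2 lists, and all 6 carried H3K4me3. Over all autosomal protein-coding genes 40.7% were called in all 4 lists and 22.4% carried H3K4me3. No list had a call at the 5 mast cell and basophil markers (Cpa3, Fcer1a, Ms4a2, Mcpt8 and Gata1). The same held for the markers of B cells (0 of 4), T cells (0 of 3), NK cells (0 of 2), megakaryocytes (0 of 2) and dendritic cells (0 of 4). Of 20665 autosomal protein-coding genes, 44.7% had no H3K4me2 call within 1 kb of the start in any list, so these short lists say little. Of 4 erythroid markers Klf1 was called in both DE lists alone and Epor in WT replicate 2 alone. Of 3 late neutrophil markers, the S100a8 start was called in both DE lists alone and Ltf in WT replicate 1 alone. The part of these differences in the results on the receptors was not tested. Of 3 stem cell markers, Hlf and Mecom were called in all 4 lists and Procr in 2.

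All 5 receptor genes carried H3K4me2 at their start end in both WT and both DE libraries, and 2 of the 5, Csf1r and Csf2rb, also carried H3K4me3 there. Among 20665 autosomal protein-coding genes, 40.7% had H3K4me2 calls within 1 kb of the start in all 4 lists, and 50.8% of those had H3K4me3. Of the 35 receptor regions 11 were called in all 4 H3K4me2 lists (31.4%), close to the 30.2% of all regions. Those called in 1 list numbered 20 (57.1%, against 42.5%). Calls in both WT and neither DE list numbered 1 of 35 (2.86%, against 8.77% of all regions). Calls in both DE and neither WT list numbered 0 (1.10% of all regions). Of the 35 regions, WT replicate 1 held 22 and WT replicate 2 held 21, against 18 in DE replicate 1 and 12 in DE replicate 2. That order is also the order of the lists' lengths (71.4%, 65.4%, 52.3% and 40.3% of all regions). Of the 11 constant regions 8 overlapped a receptor gene near its start end (3 at Csf1r, 2 at Kit and 1 at each other gene). The other 3 lay at or in the neighbouring genes Csf2rb2, Mrps15 and Oscp1.

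**Figure D1:**
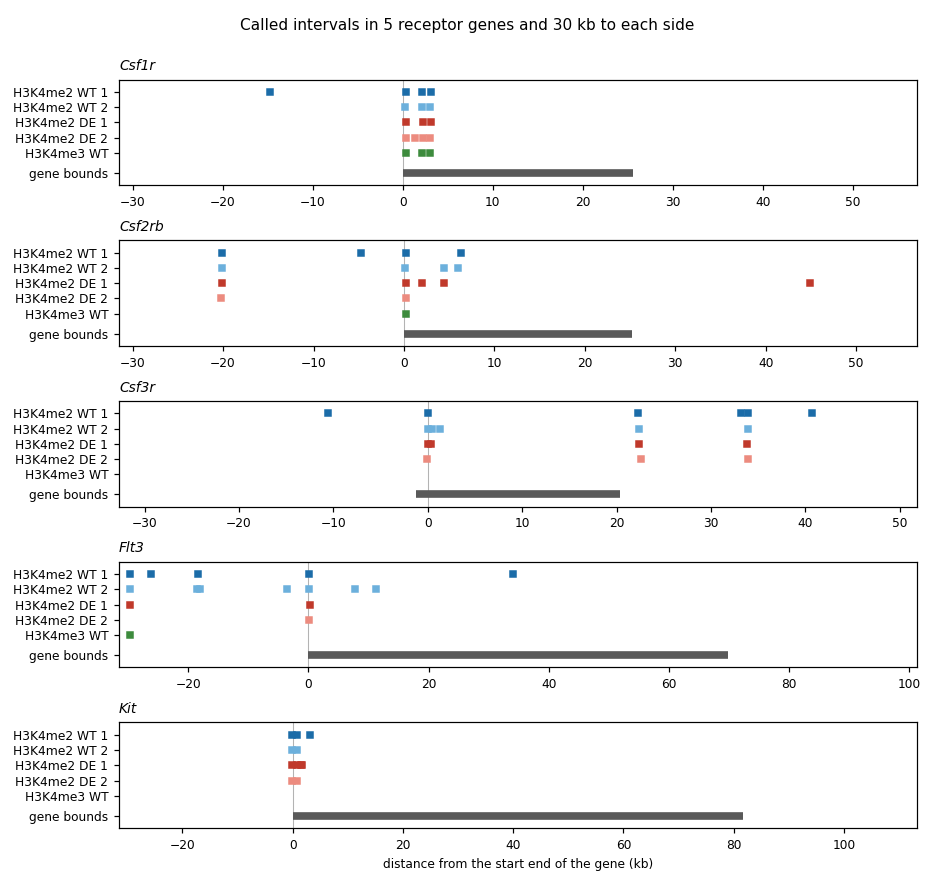
Each square is a called interval, by library, placed by the distance of its centre from the start end of the gene in kb (a linear axis that differs between panels). The grey bar gives the gene bounds. Calls inside Csf1r and Kit crowd within a few kb of the start end, and the rest of these bodies is empty in all 5 lists. Around Csf2rb, Csf3r and Flt3, and in WT replicate 1 outside Csf1r, calls also lie farther from the start.

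The bases before the starts of Csf3r, Flt3 and Kit are shown because their H3K4me2 regions reach into them in all 4 lists. They are the 250 bases before the RefSeq start (GRCm38.p6, the mm10 build), written 5′ to 3′ on the strand of the gene. Capitals mark GGAA or its reverse complement TTCC, the core bound by ETS factors such as PU.1.
Csf3r, chr4:126024409-126024658, plus strand: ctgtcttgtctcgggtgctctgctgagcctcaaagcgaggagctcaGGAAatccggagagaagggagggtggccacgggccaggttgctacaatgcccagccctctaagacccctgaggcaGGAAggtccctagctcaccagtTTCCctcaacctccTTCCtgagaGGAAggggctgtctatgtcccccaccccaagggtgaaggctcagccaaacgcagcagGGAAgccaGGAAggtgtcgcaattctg
Flt3, chr5:147400490-147400739, minus strand: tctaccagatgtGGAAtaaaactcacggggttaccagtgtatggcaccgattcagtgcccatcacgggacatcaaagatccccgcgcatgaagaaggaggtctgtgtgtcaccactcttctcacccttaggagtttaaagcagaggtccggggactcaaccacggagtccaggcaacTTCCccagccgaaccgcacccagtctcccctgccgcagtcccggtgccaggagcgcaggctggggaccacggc
Kit, chr5:75574737-75574986, plus strand: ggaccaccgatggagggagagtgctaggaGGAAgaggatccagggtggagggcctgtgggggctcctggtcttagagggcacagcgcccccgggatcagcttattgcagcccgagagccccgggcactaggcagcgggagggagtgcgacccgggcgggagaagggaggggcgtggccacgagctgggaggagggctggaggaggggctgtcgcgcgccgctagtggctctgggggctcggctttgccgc
The Csf3r window held 7 matches to this core, the Flt3 window 2 and the Kit window 1. Over 32851 such windows the median was 3 matches, 93.4% held at least 1 match, and 3.82% held 7 or more. The longer ETS form GAGGAAGT (in 2.44% of windows on either strand), the C/EBP forms TTGCGCAA (0.164%) and TTGCNNAA (9.56%), the RUNX form TGTGGT (14.0%), the E-box CACCTG (17.2%) and the GATA form AGATAA (9.99%) were not found in the 3 windows. GGAA also lies inside GAGGAAGT, and TTGCGCAA inside TTGCNNAA. Matches are letters in these windows only and not measured sites. The Kit window was richer in G and C (70.8%) than those of Csf3r (60.0%) and Flt3 (59.2%), against a median of 52.4% over all windows.

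Csf1r, the receptor of macrophage colony-stimulating factor and the defining receptor of the monocyte lineage (gene ID 12978, chromosome 18, 61105572 to 61131139), had 5 regions. The 3 constant regions all lay inside the gene within 3269 bp of its lower-coordinate end, which holds its promoter, and all 3 carried an H3K4me3 interval. The first region, 61105651 to 61106191, begins 79 bp inside the gene. The second, 61107497 to 61108062, and the third, 61108349 to 61108841, begin 1925 and 2777 bp inside. A known enhancer of this gene, the fms intronic regulatory element, lies in intronic sequence of its 5′ part. Exon bounds were not used here, so no region was assigned to an intron or to that element. From the third region to 30 kb beyond the far end, no list had another interval. The other regions were called once each: 61090782 to 61090930, 14.64 kb outside the gene on the side of Pdgfrb, in WT replicate 1 (7 fragments), and 61106820 to 61107018 in DE replicate 2 (9 fragments).

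At the third Csf1r region the caller's fold over background was 15.6 and 15.7 in WT and 4.40 and 4.24 in DE, so the genotypes stood apart. The same summits held 22 and 48 fragments in WT and 41 and 36 in DE. Fragments at a summit were recovered from the caller's fold and p, and dividing them by relative depth gives depth-scaled fragments. On that scale WT had 46.1 and 46.2 and DE 34.2 and 24.5, a ratio of 0.635 between the means (46.2 ± 0.0677 and 29.3 ± 6.89, SD, n = 2 each). The median ratio over 11885 regions called in all 4 lists with recovered values was 0.649 (5th to 95th percentile 0.418 to 1.02), so the ratio at this region was close to that of the typical region. In bulk libraries, fewer marked cells and less of the mark in each cell cannot be told apart. Whether the lower DE values come from the cells or from the libraries was not tested. The background under the summit was 1 and 2 control fragments in WT and 7 and 5 in DE. The summits lay 2986 and 3024 bp inside the gene in WT and 3105 and 3083 bp inside in DE. The lower folds in DE stood beside a higher background of a few control fragments. Depth-scaled fragments do not take this background off, and its part in the lower folds was not tested.

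At the first Csf1r region the depth-scaled fragments were 16.8 and 20.2 in WT against 22.5 and 12.2 in DE, which overlap (ratio 0.939). At the second they were 52.4 and 31.8 in WT against 19.2 and 18.3 in DE, so that both DE values lay below both WT values (ratio 0.446). In depth-scaled fragments the third region was above the first in each H3K4me2 library, by 2.75 and 2.29 times in WT and 1.52 and 2.00 times in DE. The second region was 3.12 and 1.57 times the first in WT, and 0.852 and 1.5 times in DE. Its place relative to the first thus varied within the genotypes. The caller's fold gave another order. By fold the third region was 1.98 and 1.01 times the first in WT, and 0.269 and 0.461 times in DE. The second was 2.23 and 0.703 times the first in WT, and 0.616 and 0.701 times in DE. For H3K4me3 the 3 regions were nearly level, with 48, 54 and 57 fragments in order from the start, and fold values of 9.81, 7.59 and 7.98. The H3K4me3 intervals (119, 257 and 106 bp) were narrower than most of the H3K4me2 intervals (131 to 532 bp), and their summits lay 309, 2147 and 3000 bp inside the gene.

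**Figure D2:**
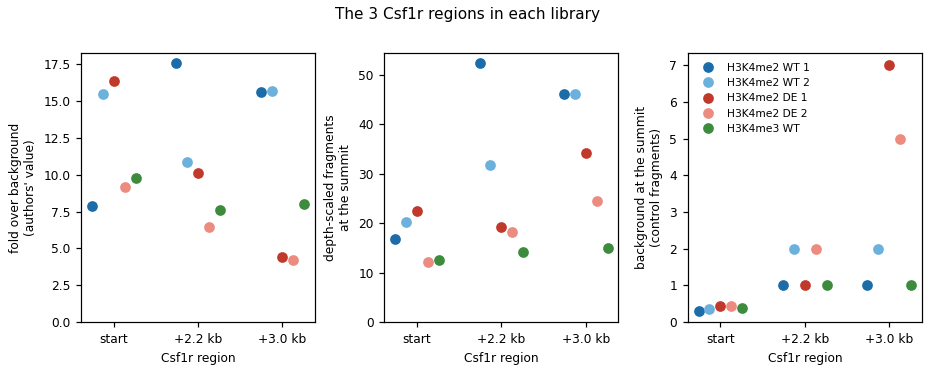
For the 3 Csf1r regions (horizontal), each point is 1 library; the panels give the authors' fold over background, depth-scaled fragments at the summit and the background there in control fragments, all on linear axes. At the third region the DE folds are low while their background is 7 and 5 control fragments, against 1 and 2 in WT.

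Kit, the receptor of stem cell factor (gene ID 16590, chromosome 5, 75574987 to 75656722), had the highest start region of the 5 genes in every H3K4me2 library by depth-scaled fragments. By the caller's fold it was highest in none: the Flt3 start was above it in all 4 (14.8 and 20.6 in WT, 19.8 and 10.4 in DE, with 12.7, 11.7, 7.54 and 7.72 at Kit). The region over the start, 75574699 to 75575142, held 36 and 72 fragments in WT and 44 and 44 in DE. Scaled to depth, WT stood at 75.5 and 69.4 and DE at 36.7 and 29.9, a ratio of 0.460 (72.4 ± 4.35 against 33.3 ± 4.82, SD, n = 2 each). Both DE values lay below both WT values, as they did in 70.7% of all shared regions, and DE lay above WT without overlap in 0.959%. Among shared regions ranked by fragments the Kit start was in the top 4.54% and 4.25% in WT and the top 13.8% and 14.4% in DE. The test of that shift, an alternative chosen after seeing the data, did not pass (limma, −0.63 ± 0.33 SE in normal scores, adjusted p = 0.666). In the planned ranks by −log10 p the shift of the Kit start was −0.39 ± 0.43 (SE, limma adjusted p = 0.817).

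A second Kit region, 75575569 to 75576045, begins 582 bp inside the gene and held 16 and 39 fragments in WT and 37 and 38 in DE. Its depth-scaled values were 33.6 and 37.6 in WT against 30.9 and 25.8 in DE, again without overlap, and its ratio of 0.797 was nearer to 1 than that of the start. The summits of the start region lay 59 and 43 bp before the start in WT and 28 and 27 bp before it in DE. Neither Kit region carried H3K4me3, although both were in the strongest of 10 equal classes of shared regions by WT rank. Of the 876 gene-end regions in that class 69.1% carried H3K4me3. The remaining 3 Kit regions lay 1337, 1628 and 3098 bp inside the gene and were called once each, in DE replicate 1 (8 and 14 fragments) and WT replicate 1 (5 fragments). The rest of the gene and both flanks had no call in any list.

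Flt3, the receptor of FLT3 ligand (gene ID 14255, chromosome 5, 147330741 to 147400489, minus strand), had 1 constant region. It covers the start, 147400000 to 147400625, with 17 and 32 fragments in WT and 38 and 24 in DE. Its depth-scaled values were 35.7 and 30.8 in WT against 31.7 and 16.3 in DE, which overlap (ratio 0.722). The summits lay 105 and 42 bp after the start in WT and 88 and 89 bp after it in DE. It carried no H3K4me3, whereas 66.8% of the 910 gene-end regions of like WT strength did. The H3K4me3 list is short, and the fewest fragments in any of its called summits were 16, so the mark may be there below the level of a call.

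Flt3 had the widest difference of the 5 genes between WT and DE in the number of calls. Of its 9 regions the WT libraries held 5 and 7 and the DE libraries 2 and 1, a mean difference of 4.5 regions (exact two-sided permutation p = 0.333, the smallest that 2 against 2 libraries allow). The same libraries held 71.4%, 65.4%, 52.3% and 40.3% of all regions. With lists cut to equal length the Flt3 difference was 0, and at a −log10 q of at least 5 it was 0.5. The region called in both WT and neither DE list, 147418880 to 147419026, lay 18.39 kb upstream of the start, and held 4 and 9 fragments with −log10 q of 1.25 and 3.15. It came 97.4% and 79.9% of the way down its lists, among the weak calls, and the nearest gene end was that of Pan3 at 7182 bp. Of the Flt3 regions without a DE call, 147392696 to 147392817 held most fragments, 26 in 122 bp in WT replicate 2 alone. That region lies inside the gene, 7672 bp from the start. WT replicate 1 alone had 147366382 to 147366540, inside the gene, and 147426588 to 147426679, in Pan3 (4 and 7 fragments). WT replicate 2 alone had 147389206 to 147389300, inside the gene (10 fragments). It also had, outside the gene, 147403971 to 147404112 (5 fragments) and 147418431 to 147418564 (14 fragments). The last region, 147429990 to 147430215, lies in Pan3, a gene of mRNA deadenylation. It was called in both WT lists and DE replicate 1 (13, 24 and 19 fragments) and carried the one H3K4me3 interval near Flt3 (79 fragments).

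Csf2rb, the shared beta chain (gene ID 12983, chromosome 15, 78325800 to 78351001), had a constant region over its lower-coordinate end, 78325731 to 78326268. It held 20 and 32 fragments in WT and 28 and 25 in DE. The depth-scaled values of 41.9 and 30.8 in WT and 23.4 and 17.0 in DE did not overlap, with a ratio of 0.554. An H3K4me3 interval of 159 bp with 45 fragments lay on it. The other constant region, 78305446 to 78305762, lies at the start of Csf2rb2, the sister chain that binds interleukin 3, 20.04 kb from Csf2rb. It was weak in each list, with 5 and 15 fragments in WT and 8 and 9 in DE, and carried no H3K4me3. The sister genes are alike in sequence, and the labels do not say how reads that match both were placed.

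Of the other 6 Csf2rb regions, 1 had calls from both genotypes, 78330121 to 78330264 (6 fragments in WT replicate 2, 8 in DE replicate 1), and 5 were called once. Inside the gene these were 78327661 to 78327899 in DE replicate 1 (8 fragments), 78331664 to 78331771 in WT replicate 2 (5 fragments) and 78332056 to 78332131 in WT replicate 1 (4 fragments). Outside it were 78321016 to 78321119 in WT replicate 1 (9 fragments) and 78370586 to 78370700 in DE replicate 1 (6 fragments). Of the 8 regions 4 were called in each WT list, 5 in DE replicate 1 and 2 in DE replicate 2, so the genotypes overlapped.

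Csf3r, the receptor of granulocyte colony-stimulating factor (gene ID 12986, chromosome 4, 126023441 to 126044975), had a constant region over the RefSeq start at 126024659, 1218 bp inside the gene bounds. The region, 126024440 to 126024817, held 11 and 28 fragments in WT and 22 and 37 in DE. Depth-scaled values were 23.1 and 27.0 in WT against 18.4 and 25.1 in DE, which overlap (ratio 0.869). DE replicate 2 stood apart in the caller's values, with a fold of 13.1 and a place in the top 4.53% of its list, against folds of 6.45 to 9.32 and places of 25.0% to 31.7% in the other libraries. Its background was 1 control fragment, as in WT replicate 1, against 2 in WT replicate 2 and DE replicate 1. No H3K4me3 interval lay within 30 kb of Csf3r. Of the 819 gene-end regions of like WT strength 40.7% carried H3K4me3.

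**Figure D3:**
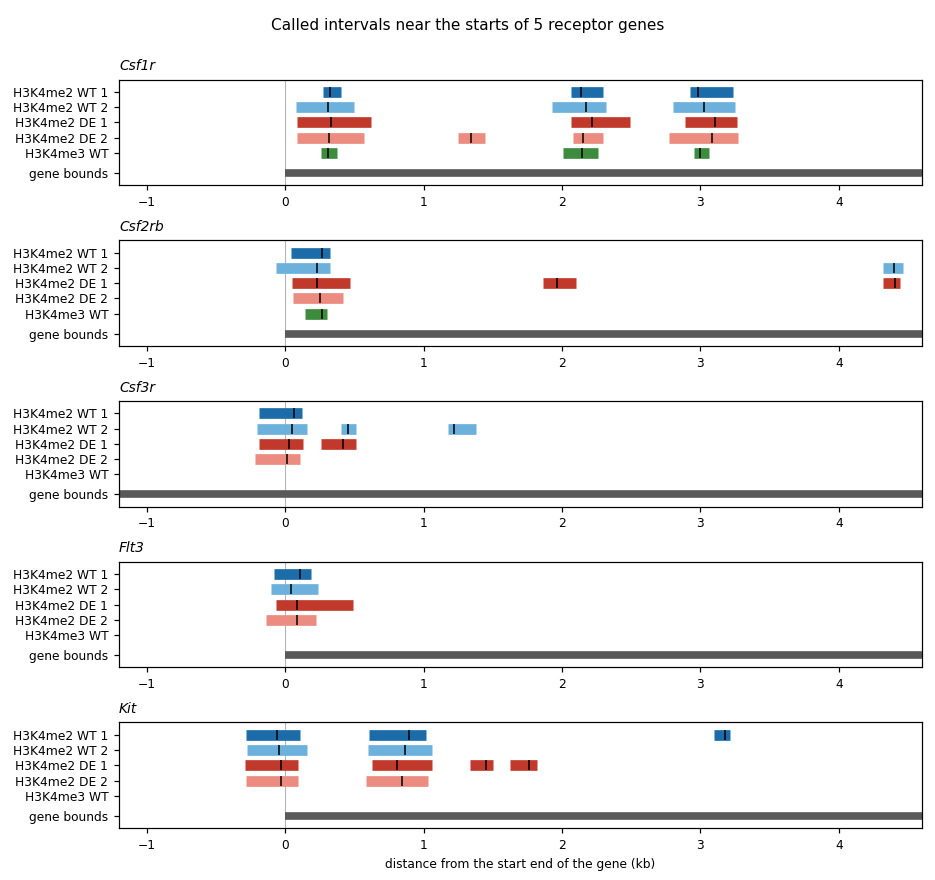
Bars are called intervals by library, ticks their strongest summits, on a linear axis of distance in kb from the start end (the RefSeq start for Csf3r, Flt3 and Kit, the lower-coordinate gene bound for Csf1r and Csf2rb). All 4 H3K4me2 libraries have an interval at each start, and H3K4me3 intervals are seen at Csf1r and Csf2rb alone.

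Beside its start, Csf3r had 126024918 to 126025172, with 9 fragments in WT replicate 2 and 11 in DE replicate 1, and 126025838 to 126026035, called in WT replicate 2 alone (7 fragments). Beyond the gene, constant regions lay at the lower-coordinate end of Mrps15, a mitochondrial ribosomal protein gene (126046828 to 126047366), and inside Oscp1 (126058428 to 126058646). They held 9 and 26 fragments in WT and 13 and 11 in DE, and 9 and 28 in WT and 24 and 25 in DE. At Mrps15 the depth-scaled values were lower in DE without overlap (ratio 0.417), and in Oscp1 they overlapped (ratio 0.807). WT replicate 1 alone had calls at 126014050 to 126014155, 126057784 to 126057863 and 126065311 to 126065395 (4, 4 and 8 fragments). The WT lists held 6 and 5 of the 8 Csf3r regions and the DE lists 4 and 3, a mean difference of 2 (exact permutation p = 0.333, the smallest possible). For Csf1r (4 and 3 against 3 and 4), Csf2rb and Kit (3 and 2 against 4 and 2) the same exact permutation test gave p = 1.

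Ordered by depth-scaled fragments at the start, Kit came first in all 4 libraries. Csf2rb and Flt3 followed in WT, with 41.9 and 35.7 in replicate 1 and 30.8 each in replicate 2, then Csf3r (23.1 and 27.0) and Csf1r (16.8 and 20.2). Csf2rb and Flt3 did not differ beyond the spread between the WT libraries, while Csf3r lay above Csf1r in both. In DE the order below Kit was not kept: Flt3 was second in replicate 1 (31.7) and Csf3r second in replicate 2 (25.1). The place of Csf1r depends on the measure. By the caller's fold its start had 7.88 and 15.5 in WT and 16.4 and 9.2 in DE. The Csf3r start had folds of 8.13 and 9.32 in WT and 6.45 and 13.1 in DE. By depth-scaled fragments 7 of the 11 constant regions had both DE values below both WT values and 0 the reverse. This share is to be read against 70.7% and 0.959% of all shared regions. The DE libraries thus lay lower at most of these regions, as they did at most of all shared regions.

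**Figure D4:**
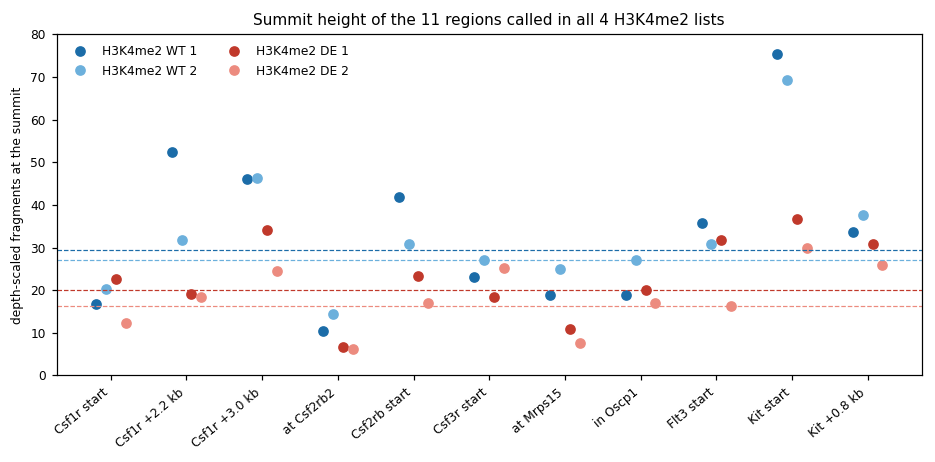
For each of the 11 constant regions (horizontal) the points give depth-scaled fragments at the summit in the 4 H3K4me2 libraries, and the dashed lines each library's median over all shared regions (from 16.3 in DE replicate 2 to 29.4 in WT replicate 1). The Kit start reaches 75.5 and 69.4 in WT and 36.7 and 29.9 in DE.

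To ask whether any receptor region changed its place among shared regions, each library was ranked by −log10 p over the same 11891 regions called in all 4 lists, and normal scores of the ranks were compared with limma. No region passed an adjusted p of 0.05 in either direction (0% of 11891), while 1040 had an unadjusted p under 0.05 (8.75%). Of the 11 receptor regions 0 passed, and 1 had an unadjusted p under 0.05, the third Csf1r region. Its normal scores of 1.13 and 1.11 (WT) and 0.03 and −0.03 (DE) give a shift of −1.12 ± 0.43 (SE, limma adjusted p = 0.514). It ranked in the top 12.9% and 13.3% of shared regions in WT and at 48.6% and 51.4% in DE. Ranked by recovered fragments, its places were 23% and 19% in WT against 17.1% and 25.2% in DE, and the shift was 0.0036 ± 0.34 (limma adjusted p = 0.999). By fragments 0 of the 11 had an unadjusted p under 0.05 (8.04% of all). Ranked by fold, 2 of the 11 did (10.4% of all), this region (−1.91 ± 0.46, limma adjusted p = 0.328) and the one at Mrps15 (1.14 ± 0.51, limma adjusted p = 0.477). In the ranks by −log10 p the shifts of the first Csf1r region and the Csf3r start were positive, at 0.81 ± 0.47 and 0.85 ± 0.55 (limma adjusted p = 0.638 and 0.671), and those of the other 8 lay between −0.39 and 0.30. No interval was shorter than 74 bp in WT replicate 1, 91 bp in WT replicate 2 or 109 bp in either DE list. This lower limit of width differed within WT as well as between the genotypes, and its part in these comparisons was not tested.

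H3K4me3 lay on 5 of the 35 receptor regions, against 14.5% of all regions. Among regions called in all 4 H3K4me2 lists it lay on 4 of 11 receptor regions, against 38.9%. These 4 were the Csf2rb start and the 3 regions of Csf1r, of which 2 lay away from any gene end, a class in which 24.7% of constant regions carried the mark. Of the 24 regions called in 1 to 3 lists 1 carried it, the region in Pan3, against 3.94%. At gene ends 2 of 8 constant receptor regions carried it, against 45.8%.

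The ligands and partner chains of these receptors were read from a list of 46 genes of the pathway. Of the ligand genes, Csf1, Flt3l and Kitl had H3K4me2 within 1 kb of the start in all 4 lists, Flt3l with H3K4me3, while Il34, Csf2 and Csf3 had no call in any list. Csf2ra, the alpha chain for GM-CSF, and Csf2rb2 were called in all 4, while Il5ra had no call in any list. Il3ra, the alpha chain for interleukin 3, was called in both WT and neither DE list (named after its values were seen). It was the only one of the 46 with that pattern, against 3.03% of all genes, and 0 had the reverse (0.223% of all genes). In all 33 of the 46 were called in all 4 lists, against 40.7% of all genes, and 18 carried H3K4me3, against 22.4%. By class, 14 of 16 signalling genes, 10 of 11 negative regulators and 4 of 9 other growth factor and cytokine receptors were called in all 4.

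For each receptor the genes of most like pattern were those with the smallest distance between the bases covered by intervals in the 5 lists, on the log2(1 + bp) scale over the gene and 30 kb to each side. Csf1r covered 828 and 1265 bp in WT, 1334 and 1395 bp in DE and 482 bp for H3K4me3, and was nearest to Mgat5, Dus2 and Srp54b (distances 0.220, 0.248 and 0.273). Csf2rb was nearest to 1190007I07Rik and Tdg, which have the same covered bases (0.177), and to Hps3 (0.286). Csf3r was nearest to Pcgf5, Sema6b and Slc16a3 (0.0783, 0.120 and 0.122). Flt3 was nearest to Eps8l2, Hoxa2 and Ldhd (0.267, 0.315 and 0.347), and Kit to Golga4, Nr6a1 and Mga (0.180, 0.202 and 0.210). These distances describe 5 libraries that differ in list length and interval width.

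The limit of 30 kb split 1 group of calls. In Pan3 the region 29.5 kb from Flt3 was inside it and the next, 147431116 to 147431441 at 30.6 kb, outside, both called in both WT lists and DE replicate 1. Elsewhere the outermost regions inside lay 14.6 kb (Csf1r), 20.04 kb (Csf2rb) and 20.3 kb (Csf3r) from the gene, and the next outside at 45.3, 54.3 and 51.5 kb. At Kit none lay wholly outside the gene, and the next was 105 kb away.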

How the data were processed

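The CUTAC libraries were prepared from sorted cMoPs with a CUT&Tag kit in tagmentation buffer without salt, and sequenced as pairs of 150 bp reads, per the labels' protocols. Peak calling with MACS2 (2.2.9.1) is taken from the submitters' processing notes, which also list Picard, SAMtools, Bowtie2, Trimmomatic and the mm10 build. The caller's settings, its control and the handling of duplicates are not stated there. Peaks were called per library. Each deposited entry holds a score (10 times −log10 q, cut to a whole number), the fold of the pileup over background as a linear ratio, and the −log10 of p and q of the summit. The deposited summit offset is in bp. These values are the authors' own and were used to describe and rank peaks within a list.

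Entries that share an interval were counted once, by the strongest p. Touching or overlapping H3K4me2 intervals were merged into regions, which were called in a library on sharing at least 1 bp with a peak. Gene bounds were those of RefSeq on GRCm38.p6, and strand and sequence from its promoter table, which holds Csf3r, Flt3 and Kit. Coordinates count from 1. The members and gene lists were chosen with earlier results of these data known.

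The caller's fold is pileup plus 1 over background plus 1, and its p a Poisson tail, so both together gave whole fragments and background for 99.95% to 99.99% of intervals, with 1 fragment worth 1 (WT replicate 1) down to 0.263 (H3K4me3). That 1 background library served all lists is an inference. Ranks over shared regions were compared with limma 3.58.1 and Benjamini-Hochberg adjustment. The fit was also run on simulated scores. The shifts added there were larger than those of the receptor regions in the ranks by −log10 p with all 4 libraries. That run therefore does not tell how often shifts of the size seen would be found. Calls per gene were compared by an exact permutation test over 6 assignments. The text accounts for all regions of the 5 genes, those called in all 4 lists in full.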

Additional observations from a re-analysis of the deposited data

How the results depend on the processing

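The count of receptor regions called in every list was 11, and 6 when at least 50% of a region had to be covered. Over all regions that count went from 11891 to 6483 in the same setting. The receptor count was 9 at a −log10 q of at least 5 and with lists of equal length (6237 and 9086 over all regions). It was also 9 within 10 kb, and when intervals within 500 bp were merged (10571 over all regions). The 1 region called in both WT and neither DE list became 0 at a −log10 q of at least 5, with lists of equal length (17079 intervals) and within 10 kb, and 2 when intervals within 500 bp were merged. Read from 3 libraries it ranged from 1 to 10 (7 without WT replicate 1, 10 without WT replicate 2, 2 without DE replicate 1), while over all regions the count of 3456 became 8308, 11846 and 6318, moving the same way. The reverse pattern ranged from 0 to 4 (1 without DE replicate 1, 4 without DE replicate 2), and over all regions from 432 to 1550 and 3379 in the same cases. The count in every list became 11 to 12. For all regions the WT count of 3456 became 929 and the DE count of 432 became 1087 with lists of equal length. Equal lengths bring these counts near each other by design, so this setting cannot tell list length from a difference between the genotypes. The count with H3K4me3 stayed within 1.5 times of 5. The WT minus DE difference in calls for Flt3 went from 4.5 to 0 with lists of equal length, 0.5 at a −log10 q of at least 5 and 2 within 10 kb, and for Csf3r from 2 to 1 at that q, within 10 kb and with 50% covered. It turned to −0.5 for Csf2rb and for Csf3r with lists of equal length, and for Kit from −0.5 to 0.5 with merging. Leaving out a library gave 3.5 to 5.5 for Flt3, 1.5 to 2.5 for Csf3r, −0.5 to 0.5 for Csf1r, −1 to 2 for Csf2rb and −1.5 to 0.5 for Kit.

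No setting put a region past the threshold for a rank shift. The replicate block (1085 regions with an unadjusted p under 0.05, 0 past the adjusted threshold) changed no call. The deviations of same-numbered libraries from their genotype means had a correlation of −0.00265. This value cannot show whether the samples were prepared in pairs, and the labels give a shared number only. Of 108 alternative values for the 11 regions 15 turned sign. Ranked by fold these were 0.27 at Csf2rb2, −0.055 in Oscp1 and −0.18 at the second Kit region. Ranked by recovered fragments, an alternative chosen after seeing the data, they were 0.0036 at the third Csf1r region and −0.77 at Mrps15. Merging gave −0.10 at the second Kit region. Leaving out a library gave −0.96 to 0.52 at Csf2rb2, −0.91 to 0.19 at the second Csf1r region, −0.40 to 0.90 at Mrps15, −0.28 to 0.68 in Oscp1, −0.19 to 0.31 at the second Kit region and −0.11 to 0.71 at the Flt3 start. The cause was not tested. The weakest summit of a list held 3 fragments in WT replicate 1, 6 in DE replicate 2 and 16 for H3K4me3, so weak regions can be missed in one list and called in another. The part of depth in this was not tested.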
